A study of Rattus norvegicus with 6 samples.

Results

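The cytosolic ribosomal protein genes of rat 3Y1 embryonic fibroblasts were followed across 3 groups of 2 Affymetrix rat expression arrays. Members were all genes whose probe sets the platform annotation gives a single symbol made of Rpl or Rps and a digit, or Rplp0, Rplp1, Rplp2 or Rpsa. The Rps6k kinases (7 genes) and 2 pseudogenes were left out, and each gene was represented by its probe set with the highest mean signal over the 6 arrays. The rule found 48 genes, from 55 probe sets, of the 14217 genes with a probe set naming 1 gene. The groups were cells stably transfected with an empty vector and grown in culture (Vector in vitro), cells stably transfected with the cytoplasmic domain of the mucin MUC1 and grown in culture (MUC1-CD in vitro), and MUC1-CD cells grown as subcutaneous tumors in the hindlimbs of female athymic mice (MUC1-CD in vivo). Every array thus came from a transfected 3Y1 line, and no Vector tumor array was analysed here. Athymic mice lack thymus-derived T cells but keep myeloid cells, B cells, vessels and muscle. The sources used here state neither whether a transfected line was 1 clone or a pool nor the age of the mice. The arrays of a group are called biological replicates in the labels.

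Ribosomal proteins assemble with ribosomal RNA into the small subunit (Rps genes), which reads the mRNA, and the large subunit (Rpl genes), which joins amino acids, while Rplp0 anchors the stalk on which elongation factors dock. Their mRNAs are among the most abundant in growing cells and typically begin with a cytosine and an unbroken run of pyrimidines, the TOP element, through which mTOR and the RNA-binding protein LARP1 control their translation. An array measures the mRNA level and not that translation.

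The start of these genes is shown first, because a long pyrimidine run was more frequent at the start of these genes than at that of all genes. RefSeq promoter entries (build GRCr8) matched 41 of the 48 genes, 32 of them among the 38 genes with bright probe sets described below. In the 50 bases from 10 before to 40 after the annotated start, an unbroken run of at least 8 C or T letters was found in 59.4% of these 32 genes and in 18.4% of all 33469 promoters. A run of at least 12 was found in 40.6% against 3.40%. Rpl18, Rpl41 and Rpl6 had no run longer than 3 letters. The windows below run from 40 bases before to 20 bases after the start. They stand for bright genes with a large fall in MUC1-CD culture (Rpl4, Rpl19 and Rpl11), the smallest called fall (Rpl35a) and a distinct course in tumors (Rpl14). Rps23 stands for the highest signal and Rps24 for a second probe set with a larger fall. Capitals mark the longest C or T run within the 50-base window.
Rpl4: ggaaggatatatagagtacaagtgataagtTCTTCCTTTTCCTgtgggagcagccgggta
Rpl19: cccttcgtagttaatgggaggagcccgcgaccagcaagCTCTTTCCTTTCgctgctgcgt
Rpl11: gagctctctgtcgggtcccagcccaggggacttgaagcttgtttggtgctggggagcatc
Rpl14: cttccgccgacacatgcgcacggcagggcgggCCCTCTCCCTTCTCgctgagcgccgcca
Rpl35a: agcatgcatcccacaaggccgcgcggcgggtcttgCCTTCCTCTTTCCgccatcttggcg
Rps23: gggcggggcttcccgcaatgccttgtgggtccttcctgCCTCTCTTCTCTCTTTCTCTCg
Rps24: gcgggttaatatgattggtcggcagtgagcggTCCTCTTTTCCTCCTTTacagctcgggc
They lie at chr8:73566437-73566496 (plus strand), chr10:83519024-83519083 (plus strand), chr5:153560783-153560842 (minus strand), chr8:129163580-129163639 (plus strand), chr11:81235002-81235061 (minus strand), chr2:23814477-23814536 (plus strand) and chr16:96477-96536 (plus strand). Rps23 had the longest of these runs, with 21 letters, followed by Rps24 with 17, Rpl14 with 14, Rpl4 and Rpl35a with 13 and Rpl19 with 12. The window of Rpl11 carries no capitals, since its longest run had 5 letters and lay beyond the printed bases. A relation of run length to the change in MUC1-CD culture was not tested.

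Short motifs were also searched, as letters only. CTTTCC occurred on the plus strand of the same 50 bases in 25.0% of the 32 genes against 2.01% of all promoters, and CTTTTC, which can occur beside it, in 21.9% against 1.64%. The following were sought on both strands of the 300 bases from 250 before to 50 after the start. CCGGAA, the core letters of ETS factor sites, was found in 34.4% against 15.0%, and GCCATNTT, letters known from YY1 sites, in 18.8% against 6.96%. CACGTG, the E-box that Myc can bind, was found in 9.38% against 6.42%, and TATAAA in 9.38% against 14.2%. A match is a description of letters and not of binding.

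Signals are MAS5 values on a linear scale, and signals of different probe sets are not amounts of RNA that can be ranked. Of the 48 genes, 44 passed the signal filter, a mean of at least 61.6, and were tested. A set of 38 had bright probe sets, with a mean signal of at least 12000, a limit chosen after the signals were seen. It comprised 25 large-subunit genes, 12 small-subunit genes and Rplp0. On every array each of the 38 lay at or above the 99.4th percentile of all probe sets. The other 10 were dim, between 26.8 and 2195 in mean signal, and are described separately.

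**Figure D1:**
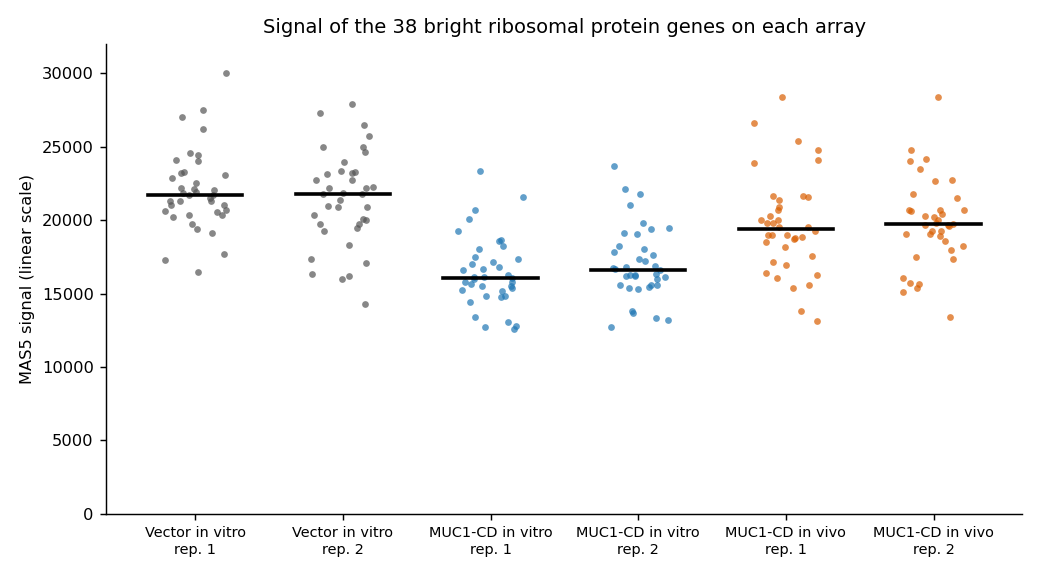
MAS5 signal (linear axis) of each of the 38 bright ribosomal protein genes on each of the 6 arrays, with each point 1 gene and each bar the median. Medians are highest in Vector (21724 and 21783), lowest in MUC1-CD culture (16073 and 16626) and intermediate in tumors (19371 and 19708).

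Vector arrays had a median signal of 21724 and 21783 over these genes, MUC1-CD culture 16073 and 16626, and tumors 19371 and 19708. The median was thus highest in Vector, intermediate in tumors and lowest in MUC1-CD culture, with no overlap between any of the groups. Single genes could differ from this order: in tumors against Vector, 34 of the 38 had estimates below 0 and 4 above. The 38 genes held 3.69% ± 0.079 (SD, n = 2) of the summed signal of an array in Vector, 3.00% ± 0.060 in MUC1-CD culture and 3.46% ± 0.0019 in tumors. The median of 72 probe sets of at least 12000 that name 1 gene and no ribosomal protein was 15646 and 16526 in Vector, 13607 and 14236 in MUC1-CD culture and 14897 and 15685 in tumors, the same order of groups. In bulk RNA, less RNA of these genes per cell and fewer cells with much of it cannot be told apart.

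All arrays share the same trimmed mean, and their medians ran from 84.0 in Vector to 130 in tumors. The ratio of 3' to 5' signal for the Gapdh control was 11.5 and 17.8 in Vector against 1.11 to 1.18 on the other 4 arrays, and that for actin was 4.15 and 41.7 against 2.97 to 3.37. Over the 38 genes, the log2 difference between replicates had an SD of 0.139 in Vector, 0.054 in MUC1-CD culture and 0.070 in tumors. Fibroblast markers were present in all groups, with a summed signal over 10 of 10 genes of 82671 to 119639, though Fbn1 was near 0 in Vector (10.5 and 8.0).

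The comparison of MUC1-CD culture with Vector culture shows what differed between the transfected lines. Ribosomal protein genes were lower in MUC1-CD cells: 36 of the 44 tested fell, none rose and 8 did not pass the test (limma, Benjamini-Hochberg adjusted p under 0.05 over all probe sets). The background was 20.7% of 18625 probe sets lower and 25.0% higher. The arrays of both groups did not overlap for 42 of the 44, all lower in MUC1-CD, against a background of 33.8% lower and 39.3% higher. The median change was -0.37 (log2), against 0.069 for all probe sets tested and -0.25 for the other bright probe sets, of which 38 of 71 fell and 4 rose. All 38 bright genes had estimates below 0, from -0.66 to -0.19. By subunit, 23 of 25 bright large-subunit genes fell (median -0.39) and 10 of 12 small-subunit genes (median -0.32), as did Rplp0.

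How far the level fell depended on how the arrays were scaled. Centring the arrays on the other bright probe sets, an alternative added after the data were seen, left 17 genes lower, where 15.3% of all probe sets were lower, and a median of -0.19. Quantile normalization left 9 of 44 lower and 1 higher, where 22.1% of all probe sets were lower and 22.2% higher, so the share of falls was near the background. The median was then -0.062, with 15 of 44 estimates above 0, and that of the other bright probe sets 0.045. Dividing each array by its median made 43 lower, where 33.2% of all probe sets were lower, with a median of -0.70, and moved the median of all probe sets from 0.069 to -0.25, while centring on the other bright probe sets moved it to 0.24. Higher calls made up 54.7% of all calls as deposited, 33.2% by the array median and 67.3% on the other bright probe sets. The median change of the 44 genes was -0.34 without MUC1-CD in vitro replicate 1 and -0.41 without its replicate 2. Fewer of them passed the test in both cases, as did fewer of all probe sets. The part of the RNA quality ratios in the fall was not tested.

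**Figure D2:**
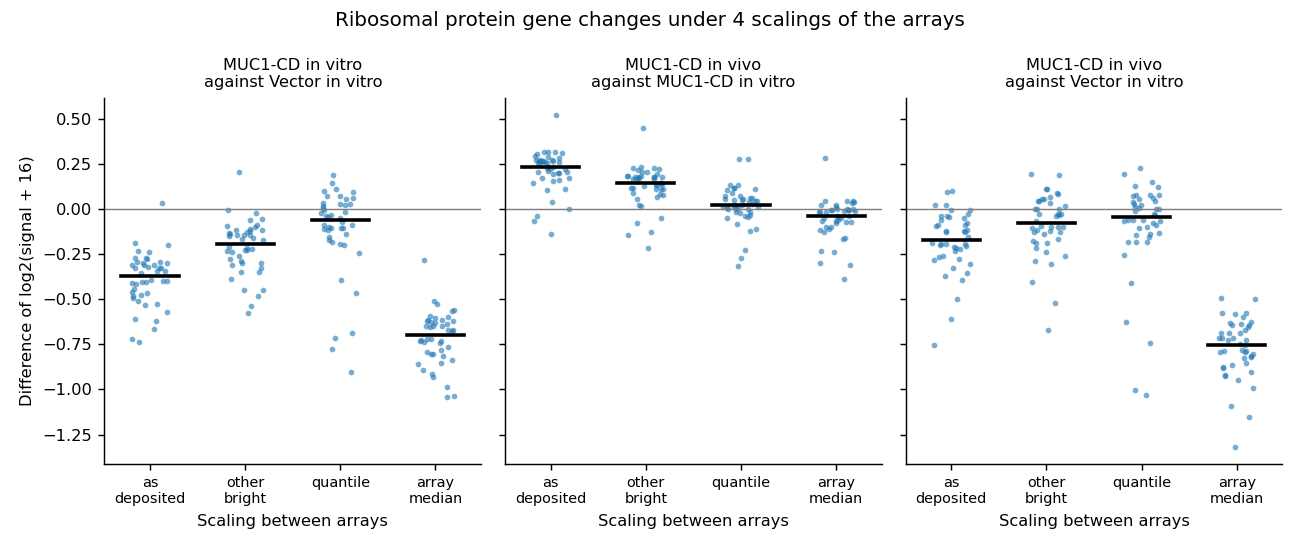
Change of the 44 tested genes (difference of log2(signal + 16)) in the 3 comparisons, with arrays scaled as deposited, on the other bright probe sets, by quantiles and by the array median. Each point is 1 gene and each bar the median. For MUC1-CD culture against Vector the medians are -0.37, -0.19, -0.062 and -0.70, and for tumors against MUC1-CD culture they are 0.23, 0.14, 0.022 and -0.039, so the last changes sign under the array median.

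Among the bright genes, the 6 largest falls were those of large-subunit genes. Rpl4 (probe set 1398749_at, chromosome 8), a protein that lines the exit tunnel, had a signal of 21325 and 19995 in Vector, 12732 and 13344 in MUC1-CD culture and 16038 and 15356 in tumors. All 3 groups stood apart, with Vector highest and MUC1-CD culture lowest. The change from Vector to MUC1-CD culture was -0.66 (SE 0.071, adjusted p = 0.000602). It kept its direction under every scaling, with -0.48 on the other bright probe sets, -0.39 by quantiles and -0.99 by the array median, each with an adjusted p below 0.05.

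Rpl19 (1367610_at, chromosome 10), a large-subunit protein that takes part in bridges between the subunits, had 24607 and 23165 in Vector, 16012 and 16170 in MUC1-CD culture and 19548 and 19061 in tumors. The order was that of Rpl4, again without overlap. Its change was -0.57 (SE 0.064, adjusted p = 0.000738), and -0.24 by quantiles. Rpl27 (23294 and 23286 against 15521 and 16731) and Rpl23 (24026 and 23956 against 15752 and 17600) followed, with changes of -0.53 each. Both are on chromosome 10, and the Vector arrays agreed closely for both.

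Several members have known roles outside the ribosome. Rpl13a, which in its phosphorylated form silences a set of inflammatory mRNAs, had 22838 and 23182 in Vector, 16051 and 16279 in MUC1-CD culture and 20020 and 20263 in tumors. The groups were clearly apart and the replicates close, and the change from Vector to culture was -0.51 (SE 0.060, adjusted p = 0.000838). Rpl11 and Rpl5 bind and restrain the p53 regulator Mdm2 when ribosome assembly is disturbed. Rpl11 had 21914 and 21404 in Vector, 15199 and 15607 in MUC1-CD culture and 17130 and 17384 in tumors. Its change in culture was -0.49 (SE 0.062, adjusted p = 0.00113). Rpl5 had 23232 and 23331 in Vector, 16820 and 16893 in MUC1-CD culture and 20010 and 20711 in tumors. Its change was -0.47 (SE 0.060, adjusted p = 0.00123), so both Mdm2 partners were lower on each MUC1-CD culture array than on either Vector array. By quantiles Rpl11 had -0.18 (adjusted p = 0.0324) and Rpl5 -0.12 (adjusted p = 0.115), so that Rpl5 was no longer called.

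Rps6, the substrate of the S6 kinases, had 20359 and 20891 in Vector, 16598 and 16638 in MUC1-CD culture and 20293 and 19664 in tumors. Tumors came within reach of Vector without overlapping it, and MUC1-CD culture was lowest. The change in culture was -0.31 (SE 0.061, adjusted p = 0.00686), but 0.034 by quantiles. Rpsa, which also serves as a laminin receptor, had 19372 and 16357 in Vector against 13080 and 13827 in MUC1-CD culture, a change of -0.40 (SE 0.094, adjusted p = 0.0131). By quantiles it was -0.11 (adjusted p = 0.327), and its other single-symbol probe sets were not called, with 0.16 (adjusted p = 0.720) and -0.24 (adjusted p = 0.134). Rps3, which also takes part in DNA repair, had 21714 and 15986 in Vector against 16095 and 16306 in MUC1-CD culture. Here the Vector arrays disagreed and replicate 2 lay below both culture arrays, so that its change, -0.20 (SE 0.135, adjusted p = 0.264), was not called; without Vector replicate 1 it was 0.019.

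Of the bright genes, Rpl35a, Rps3 and Rpl12 had the smallest changes. Rpl35a (1398760_at, chromosome 11), a large-subunit gene mutated in some cases of Diamond-Blackfan anemia, had 21734 and 22744 in Vector, 19250 and 19827 in MUC1-CD culture and 24094 and 23493 in tumors. Its tumor arrays were the highest and its culture arrays the lowest, a different order from that of Rpl4. The change in culture was -0.19 (SE 0.062, adjusted p = 0.0464) as deposited, but 0.19 (adjusted p = 0.0293) by quantiles, so its direction depends on the scaling. The 5 brightest members all fell as deposited: Rps23 by 0.30, Rps29 by 0.33, Rps3a by 0.29, Rpl26 by 0.31 and Rpl3 by 0.48, and all but Rpl3 had estimates above 0 by quantiles. Rps23, at the decoding centre, had 30021 and 27888 in Vector and 23342 and 23683 in MUC1-CD culture.

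**Figure D3:**
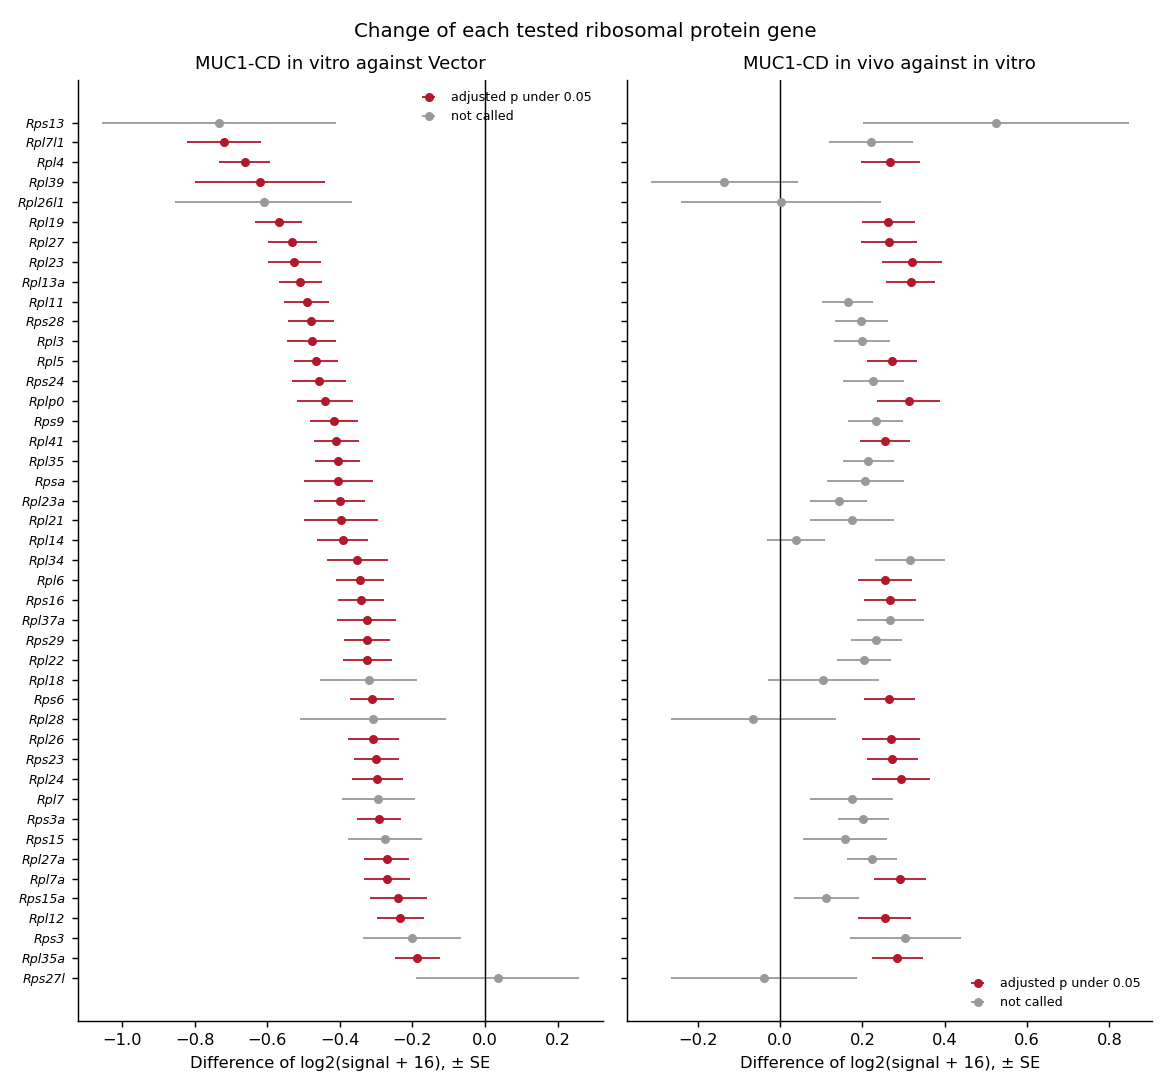
Change of each of the 44 tested genes (difference of log2(signal + 16), as deposited, with SE from limma) in MUC1-CD culture against Vector (left) and tumors against MUC1-CD culture (right), sorted by the left panel; red marks an adjusted p under 0.05. On the left 36 genes are called, all lower, and on the right 17, all higher; by quantiles 9 are lower and 1 higher on the left, and 0 are called on the right.

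The level of a gene relative to the median of the 38 bright genes on the same array is not moved by multiplying an array by 1 factor, though quantile normalization can move it. It was lower in MUC1-CD culture than in Vector without overlap for 8 of the 38 genes and higher for 14, while 16 overlapped. On the same measure 18.1% of all probe sets tested were lower and 59.3% higher. Rpl4 moved from -0.027 and -0.12 in Vector to -0.34 and -0.32 in MUC1-CD culture, a difference of -0.25 (log2). Rpl19 moved from 0.18 and 0.089 to -0.0055 and -0.040, a difference of -0.16. In the other direction, Rpl35a moved from 0.00066 and 0.062 to 0.26 and 0.25, a difference of 0.23, and Rpl12 from -0.046 and -0.099 to 0.11 and 0.10, a difference of 0.18. These 4 genes are among those with the largest and smallest falls as deposited, so their relative levels are a description, and no test was made.

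**Figure D4:**
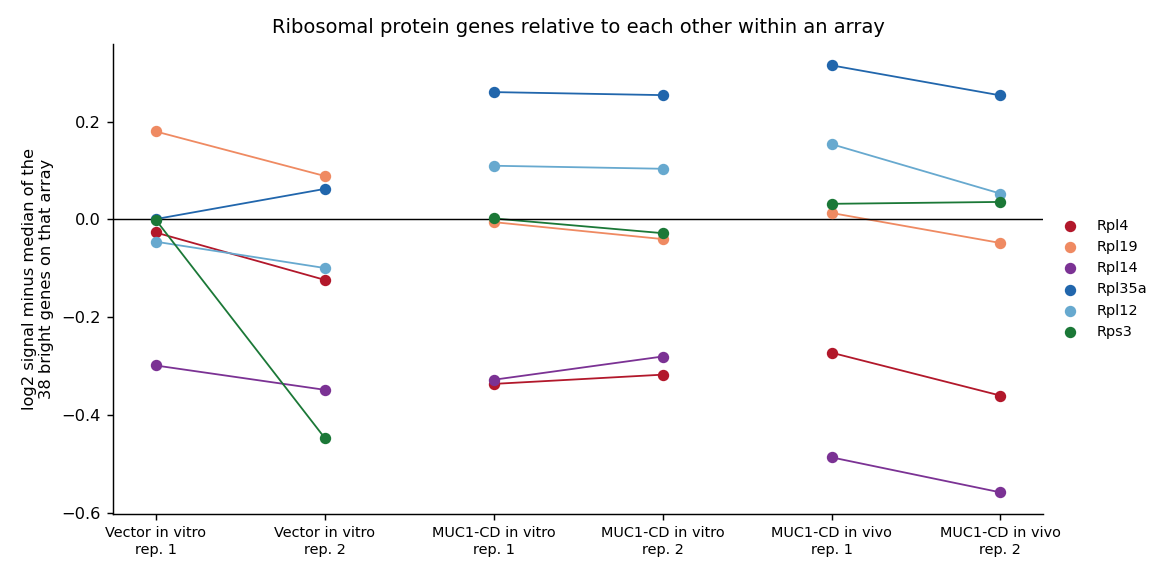
Level of 6 bright genes on each array as log2 signal minus the median of the 38 bright genes on that array; lines join the 2 replicates of a group. Rpl4 and Rpl19 lie lower in MUC1-CD culture than in Vector (differences -0.25 and -0.16), Rpl35a and Rpl12 higher (0.23 and 0.18), Rpl14 is lowest in tumors, and Rps3 shows the low Vector replicate 2.

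The members lie on many chromosomes, whose genes differed in median change. Chromosome 7 genes had a median change of -0.65 over 656 genes in MUC1-CD culture against Vector, and the 4 bright members there (Rpl3, Rpl41, Rps15 and Rps28) had -0.44. On chromosome 1 the median was 0.083 over 1256 genes, and the 6 bright members there had -0.30. On chromosome 10 the 5 bright members had -0.53, against -0.21 over 877 genes. Rps9 and Rpl37a could not be placed.

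The comparison of tumors with MUC1-CD culture shows what differed with growth in the animal. As deposited, 17 of the 44 tested genes were higher in tumors, none was lower and 27 did not pass the test, against a background of 8.54% of probe sets higher and 7.31% lower. The 17 were 13 large-subunit genes, Rplp0, Rps6, Rps16 and Rps23. Arrays did not overlap for 37 of the 44, all higher in tumors, where 40% of all probe sets were higher without overlap and 32.5% lower. The median change was 0.23, against 0.050 for all probe sets and 0.095 for the other bright probe sets (9 of 71 higher, 3 lower). This direction holds as deposited and on the other bright probe sets (median 0.14, 1 gene higher). By quantiles the median was only 0.022 and none was called, with 30 estimates positive and 13 negative. Under the array median it turned to -0.039, none called. The array median also moved the median of all probe sets to -0.21 and the share of higher calls from 53.9% to 22.3%, and centring on the other bright probe sets moved that share to 41.7%. By unadjusted p under 0.05, 29 genes were higher as deposited, 1 by quantiles and none by the array median, where 1 was lower.

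Among the rises, Rpl23 had 15752 and 17600 in MUC1-CD culture and 20871 and 20690 in tumors, a change of 0.32 (SE 0.073, adjusted p = 0.0307). Rpl13a, given above, rose by 0.32 (SE 0.060, adjusted p = 0.0161). Rplp0 had 21530 and 19471 in Vector, 14856 and 15304 in MUC1-CD culture and 18181 and 19281 in tumors. The tumor arrays of this stalk gene lay between those of the other groups, and its rise was 0.31 (SE 0.077, adjusted p = 0.0385). Rpl24, Rpl7a, Rpl35a, Rpl5 and Rps23 rose by 0.27 to 0.29. Rpl14 went against this pattern. Its signal was 17664 and 17112 in Vector, 12807 and 13692 in MUC1-CD culture and 13829 and 13389 in tumors. Tumor and culture arrays overlapped, with a change of 0.039 (SE 0.071, adjusted p = 0.755) that was below 0 under the other 3 scalings. Relative to the bright genes of the same array, Rpl14 moved from -0.33 and -0.28 in culture to -0.49 and -0.56 in tumors.

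The number of rises was 0 without either MUC1-CD in vitro replicate or either MUC1-CD in vivo replicate, 35 and 34 without Vector replicates 1 and 2, and 35 without both Vector arrays, which enter this comparison through the shared spread and the signal filter. In the last 3 settings higher calls also grew over all probe sets, to 23.5%, 23.4% and 23.9%, and among the other bright probe sets to 27 of 71 in each. Markers of other cells also differed in this comparison. The summed signal of 12 macrophage markers was 3184 and 3331 in culture and 7681 and 7649 in tumors, with 8 of 10 tested higher, and Aif1 at 0.8 and 0.4 in culture against 639 and 604. The sum over 9 skeletal muscle markers was 267 and 385 against 8934 and 8377 (7 of 7 tested higher), that over 9 endothelial markers 351 and 260 against 2749 and 2678 (4 of 4), and that over 2 erythroid markers 30.7 and 29.6 against 3349 and 3407 (1 of 1). The lymphoid sum (4 genes, all too dim to be tested) was 35.8 and 79.6 in culture and 219 and 178 in tumors. The keratinocyte sum (4 genes) was 126 and 178 in culture and 268 and 322 in tumors, against 294 and 393 in Vector. The host is a mouse and the probes are rat sequences, and the part of host RNA in the ribosomal protein signal was not tested. The Gapdh ratio was 1.11 to 1.18 on all 4 arrays compared here.

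Tumors were also compared with Vector culture, which differs in both the transfected insert and the growth setting. Here 14 of 44 genes were lower, none was higher and 30 did not pass the test, against a background of 22.4% lower and 29.1% higher. Arrays did not overlap for 31 genes with tumors lower and 1 with tumors higher (Rpl35a, named after its values were seen), where the background was 33.2% lower and 42.2% higher. The median change was -0.17 over the 44, against 0.12 for all probe sets. The 38 bright genes had a median of -0.13, with 12 lower, and the other bright probe sets had -0.12, with 21 of 71 lower, while the 6 dim genes tested had -0.44. The comparison shares its arrays with the other comparisons and is no independent evidence. Rpl4 (-0.40, SE 0.071, adjusted p = 0.00403), Rpl14 (-0.35, SE 0.071, adjusted p = 0.00622), Rpl11 (-0.33, SE 0.062, adjusted p = 0.00492) and Rpl19 (-0.31, SE 0.064, adjusted p = 0.00757) were lowest among the bright genes, followed by Rps28 and Rpl3 (-0.28 each). These 4 were also lower by quantiles, on the other bright probe sets and by the array median, with an adjusted p below 0.05. The smallest changes were those of Rpl24 (-0.0025), Rps27l (-0.0043) and Rpl12 (0.021). The array median moved the median of all probe sets to -0.46 and the share of higher calls from 56.5% to 25.1%. The count of falls was 42 by the array median, where 45.7% of all probe sets were lower, and 8 by quantiles, with 1 rise, where 27.0% were lower. It was 8, with 1 rise, on the other bright probe sets, where 19.1% of all probe sets were lower. Without the mean-variance trend it was 2, where 20.7% were lower. The median change of the 44 genes was -0.17 without either MUC1-CD in vitro replicate, and -0.16 and -0.19 without tumor replicates 1 and 2. Fewer of them passed the test in each case, as did fewer of all probe sets.

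The dim genes were mainly paralogs and probe sets with little signal. Rpl7l1, a relative of Rpl7 that acts in assembly of the large subunit, was the brightest of them, with 2894 and 2800 in Vector, 1752 and 1695 in MUC1-CD culture and 2010 and 2014 in tumors. The groups stood apart in the order of the bright genes. Its changes were -0.72 in MUC1-CD culture (SE 0.10, adjusted p = 0.00179) and -0.50 in tumors (adjusted p = 0.00686), both against Vector, while the parent gene Rpl7 changed by -0.29 in culture (adjusted p = 0.0514). A second single-symbol probe set of Rpl7l1, with 1935 and 846 on the Vector arrays, did not share this fall. Against Vector it had 0.25 in culture (limma adjusted p = 0.576) and 0.43 in tumors (limma adjusted p = 0.332). Rpl39 had 378 and 342, 253 and 206, and 200 and 212 on the Vector, culture and tumor arrays. It fell by 0.62 in culture and by 0.76 in tumors, both against Vector. Rps27l, a paralog of Rps27 induced by p53, had 343 and 511 in Vector, 382 and 483 in MUC1-CD culture and 428 and 407 in tumors. These ranges overlapped in every comparison. Rpl26l1, close kin of Rpl26, had 195 and 229, 126 and 140, and 164 and 107 on the same arrays, and no change was called as deposited. By quantiles it was called in culture against Vector (-0.78, limma adjusted p = 0.0412). Rps13 and Rpl28 were not called in any comparison as deposited, and Rpl30, Rpl39l1, Rpl3l and Rps4y2 were too dim to be tested, with signals of 5.2 to 130. By quantiles, Rpl28 and Rpl26l1 were called in tumors against Vector.

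For Rpl28, Rpl30 and Rps13, other probe sets that name the gene together with related loci were bright. The mean signal of the single-symbol probe sets was 176, 51.0 and 134. The several-symbol probe set for Rps13 instead had 22205 and 23104 in Vector, 15955 and 16505 in MUC1-CD culture and 20795 and 20804 in tumors. In all, 36 such probe sets name a ribosomal protein gene beside others, most often pseudogenes, and were not members because their signal cannot be given to 1 gene. They had 30 falls and no rise in MUC1-CD culture against Vector (median -0.38). In tumors they had 13 rises and no fall against MUC1-CD culture (median 0.23), and 10 falls and no rise against Vector (median -0.13). The background was 20.7% lower in the first comparison, 8.54% higher in the second and 22.4% lower in the third. For the other direction it was 25.0% higher, 7.31% lower and 29.1% higher.

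Some members had a second single-symbol probe set whose course or size of change differed. For Rpl3, the probe set used had 27030 and 25010 in Vector, 18235 and 19100 in MUC1-CD culture and 21347 and 21506 in tumors. Its other probe set, of the _x_at kind that can share probes with other sequences, had 2205 and 2528, 850 and 954, and 7835 and 7555. Both were lowest in MUC1-CD culture, but the first was highest in Vector and the other in tumors, and in tumors against Vector they were called in opposite directions. For Rps24, the probe set used had 22512 and 24983, 17149 and 17379, and 19817 and 20594, and the other had 1800 and 1684, 448 and 414, and 505 and 485. Both fell in MUC1-CD culture, by 0.46 and 1.98.

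**Figure D5:**
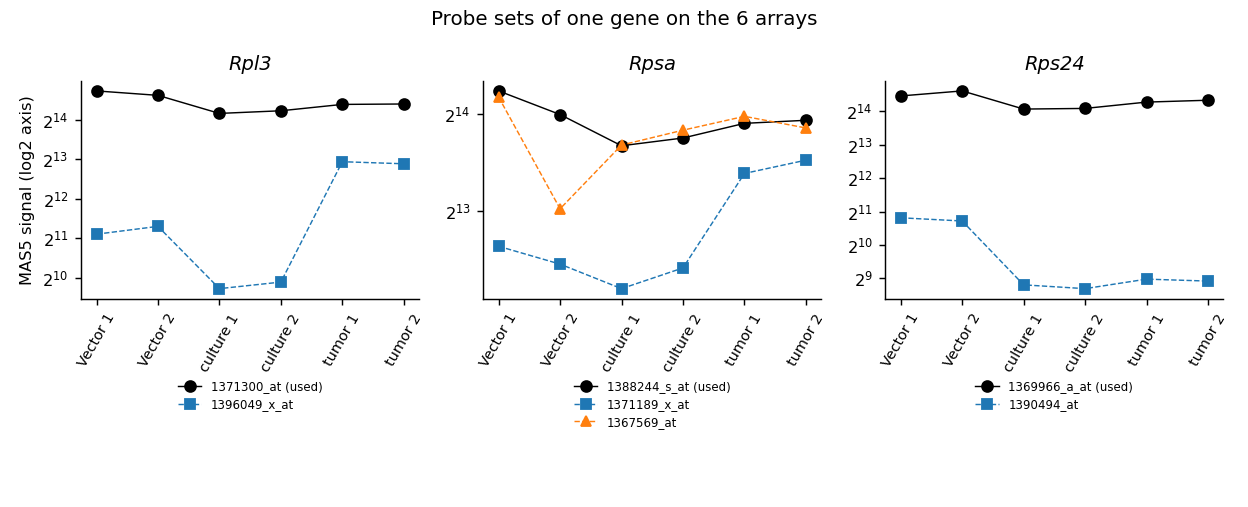
MAS5 signal (log2 axis) of the single-symbol probe sets of Rpl3, Rpsa and Rps24 on the 6 arrays; black circles are the probe set used for the gene and coloured symbols the others. The dimmer _x_at sets of Rpl3 (7835 and 7555 in tumors) and Rpsa (10728 and 11798) are highest in tumors, and the second set of Rps24 is higher in Vector (1800 and 1684) than in MUC1-CD culture (448 and 414) and tumors (505 and 485).

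Other genes of the translation pathway were read from lists. The background over all probe sets was 20.7% lower and 25.0% higher in MUC1-CD culture against Vector. In tumors against culture it was 7.31% lower and 8.54% higher. Of 16 further mRNAs known to carry a TOP element, 11 were tested: 9 fell and none rose in MUC1-CD culture against Vector (median -0.42), and 1 rose in tumors against culture. Eef1a1, which delivers tRNA to the ribosome, had 24744 and 23495 in Vector and 18575 and 19738 in MUC1-CD culture, a change of -0.33 (adjusted p = 0.0068), close in size to that of the members. Hnrnpa1, an RNA-binding protein, and Eef1d, an exchange factor of elongation, changed by -1.65 and -1.22. Median changes differed between chromosomes in this comparison, with -0.65 over 656 genes of chromosome 7. The chromosomes of the genes in these lists were not examined, so chromosome-wide shifts in their changes were not told apart. Among 23 initiation factors tested, 10 fell and 3 rose in culture against Vector, and 4 rose in tumors against culture. Eif3h fell by 1.25 and Eif3d by 0.86, while Eif4e, the cap-binding protein, was higher by 0.87 (adjusted p = 0.0065). Estimates of the initiation factors in this comparison ran from -1.25 to 2.67, so the largest change was upward.

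Of 28 genes for RNA polymerase I and the assembly of subunits, 13 fell and 2 rose in MUC1-CD culture against Vector, with a median of -0.46. The background was 20.7% lower and 25.0% higher. Gnl3, a nucleolar GTPase, changed by -1.92, Bop1, a factor of large-subunit maturation, by -2.13 and Mybbp1a by -1.49. Estimates of the list ran from -2.13 to 1.62. In tumors against MUC1-CD culture no gene of this list was called by limma. Of its 28 estimates as deposited, 19 were above 0 and 9 below, where 54.6% of all probe sets tested were above 0 and 45.4% below. The median was 0.16, against 0.050 for all probe sets and 0.23 for the tested ribosomal protein genes. The direction of the median was thus that of the ribosomal protein genes as deposited. Other scalings were not read for this list, and a difference between the 2 sets was not tested. Among 11 regulators, 3 fell and 1 rose in culture, against the background of 20.7% lower and 25.0% higher. Myc, a transcription factor that acts on many genes of ribosome synthesis, had 3824 and 3012 in Vector, 228 and 227 in MUC1-CD culture and 397 and 417 in tumors. It fell by 3.81 in culture against Vector (limma adjusted p = 2.6e-05) and rose by 0.80 in tumors against culture (limma adjusted p = 0.0196). The median of the bright members and that of the other bright probe sets had the same order of groups. A link between Myc and the ribosomal protein genes was not tested. The chromosomes of Myc and of the assembly genes were not set beside their changes either. Of 73 mitochondrial ribosomal protein genes, which build a separate ribosome, 26 fell and 5 rose in culture against Vector (median -0.33), and 3 fell and 1 rose in tumors against culture (median -0.036), below the background of 7.31% and 8.54%.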

How the data were processed

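RNA of 6 samples (total RNA, biotin-labelled cRNA) was hybridised to Affymetrix arrays. The authors deposited MAS5 signals, an array intensity with no log taken, which the submitters' processing notes name and whose scale was read from the values. The version and settings of MAS5 are not known here. RNA of tumors was prepared by other steps than that of cultures, per the labels' protocols, so preparation and growth setting cannot be told apart. Of 31042 probe sets other than controls, 20826 name 1 gene and 436 several, and 9780 are unnamed here. Names follow GEO's platform annotation and GRCr8.

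Signals were analysed as log2(signal + 16), a scale that understates changes of dim genes. The filter on low signals kept the 18625 probe sets whose mean reached the 40th percentile (61.6). A single limma fit (version 3.58.1, R 4.3.3) held all arrays, with group as the only term, lmFit and eBayes with a mean-variance trend, leaving 3 residual degrees of freedom. Tests are 2-sided, with p values Benjamini-Hochberg adjusted over all kept probe sets at 0.05. They rest on the spread between 2 arrays a group, which limits their precision. The fit was tested on simulated data.

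The members and lists were chosen with earlier results of these data known. Named genes are, per comparison, the 8 largest called rises and falls without overlap between arrays and the 3 smallest changes, the 5 brightest and 3 dimmest members, stalk genes, paralogs with parents, genes with known other roles, and up to 4 genes per companion list. Others named were chosen after their values were seen.

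Alternatives were pseudocounts of 1 and 64, other filters, scalings, variance models and probe set choices, a replicate block and leaving out each array. Same-numbered arrays did not deviate together over the probe sets (correlations of -0.018, -0.045 and -0.027). With 2 arrays a group, this cannot show whether same-numbered samples were handled together. The main fit used no pairing. Protein lengths were not analysed here.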

Additional observations from a re-analysis of the deposited data

Results flagged for a closer look

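The second Rpl3 probe set was above Vector in tumors although the probe set that represents Rpl3 was below it. Its signal was 2366 ± 228 (SD, n = 2) in Vector and 7695 ± 198 in tumors, a difference of 1.70 (log2; limma adjusted p = 9.7e-05).

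The dimmer _x_at probe set of Rpsa was likewise higher in tumors, with 5986 ± 540 (SD, n = 2) in Vector and 11263 ± 757 in tumors, a difference of 0.91 (log2; limma adjusted p = 0.000887). The probe set that represents Rpsa had a change of -0.20 (adjusted p = 0.123) in the same comparison, and the third, with 18534 and 8329 on the Vector arrays, had 0.32 (adjusted p = 0.443). The cause of these differences was not tested.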

How the results depend on the processing

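The limits are few arrays, signals near the top of the range and the scaling between arrays. No member rose in MUC1-CD culture against Vector, or fell in tumors against MUC1-CD culture, in any setting run, except 1 rise by quantiles. Counts of falls in culture, rises in tumors against culture and falls in tumors against Vector (36, 17 and 14) were 23, 0 and 6 with no filter, 9, 0 and 8 by quantiles, 43, 0 and 42 by the array median, 17, 1 and 8 on the other bright probe sets, 16, 0 and 2 without the mean-variance trend, and 31, 34 and 7 with array weights. The replicate block gave 35, 7 and 11. Both Vector arrays left out gave 35 rises. Leaving out 1 array gave 16 to 40, 0 to 35 and 3 to 21. Rises in tumors against Vector were 1 by quantiles, on the other bright probe sets and with all probe sets of a gene averaged, and 0 to 1 with 1 array left out.

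The median changes (-0.37, 0.23 and -0.17) were -0.062, 0.022 and -0.046 by quantiles, -0.70, -0.039 and -0.75 by the array median, and -0.19, 0.14 and -0.079 on the other bright probe sets. In culture against Vector the median was -0.34 with no filter and -0.33 with probe sets averaged. In tumors against Vector it was -0.13 with no filter and with the 60th percentile filter, -0.14 without _x_at and _s_at sets and -0.12 with probe sets averaged. Leaving out 1 array gave -0.41 to -0.34, 0.22 to 0.25 and -0.19 to -0.14.

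Of 801 values of named genes under an alternative, 613 kept direction and side of the threshold, 141 were no longer called, 10 became called and 37 changed sign; the cause was not tested. In culture against Vector, quantiles gave Rpl35a 0.19, Rps3 0.14, Rps23 0.054, Rps29 0.029, Rps3a 0.075, Rpl26 0.072, Rpl7 0.0052, Rps6 0.034 and Rps27l -0.046. Rps27l was -0.28 by the array median and -0.24 to 0.31 with 1 array left out, the ends without Vector replicates 1 and 2. Without MUC1-CD in vitro replicate 2 it was -0.13. Rps3 was -0.42 to 0.019 with 1 array left out, the ends without Vector replicates 2 and 1, and Rpsa 0.16 without _x_at and _s_at sets. In tumors against culture, the array median, quantiles and the other bright probe sets gave Rpl14 -0.23, -0.085 and -0.049 and Rpl26l1 -0.24, -0.22 and -0.077, and Rpl26l1 was -0.0013 with a pseudocount of 1. With 1 array left out Rpl14 was -0.0090 to 0.087, Rpl26l1 -0.27 to 0.28 and Rps27l -0.20 to 0.12. In tumors against Vector, averaged probe sets gave Rpl14 0.37 and Rpl3 0.71. The Rpl14 average took in a second probe set with a mean signal of 53.5, below the filter. That of Rpl3 took in its _x_at set. Rpl24 was 0.13 by quantiles, 0.089 on the other bright probe sets and -0.052 to 0.047 with 1 array left out. Rps27l was 0.084 on the other bright probe sets, and 0.27 and 0.031 without Vector replicate 2 and tumor replicate 2. Rpl12 was -0.58 by the array median, and -0.017 to 0.059 with 1 array left out.

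The planned description by protein length was not run, since no protein table was used here.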

Other observations

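Vector replicate 2 was far below replicate 1 for a few probe sets of ribosomal protein genes and close to it for most. A several-symbol probe set for Rps2 had 19141 and 5005 on the Vector arrays and 16670 to 19181 on the other 4, while another had 21315 and 21464 on the Vector arrays. Rpl18 had 21879 and 16215 and Rps3 21714 and 15986. The largest log2 difference between the Vector arrays over the 38 bright genes was 0.44, against 0.22 in size between the MUC1-CD culture arrays (-0.22) and 0.20 between the tumor arrays (-0.20).

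Both several-symbol probe sets for Rpl36a and Rpl36al1 fell in MUC1-CD culture against Vector. The dimmer had 14435 and 16029 in Vector, 7521 and 8157 in MUC1-CD culture and 7008 and 7377 in tumors, and so did not share the intermediate level of most ribosomal protein genes in tumors. The brighter had 17396 and 17775, 11436 and 12283, and 15075 and 13969.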
